A study of Mus musculus with 13 samples.

Results

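A set of 10 genes that tell epithelial from mesenchymal cells or mark hormone-responsive breast epithelium was measured in transplanted E0771 mammary tumours and in visceral fat of mice. Hosts were wild-type (WT) or lacked PD-L1 in fat (KO). The genes were taken by symbol and are 10 of the 22609 genes in each table: Krt8, Krt18, Krt14, Epcam, Cdh1, Cdh2, Vim, Zeb1, Esr1 and Pgr. E0771 is a mouse mammary tumour cell line that grows in C57BL/6 mice. The libraries came from C57BL/6 mice and fall into 4 groups: tumours grown in WT hosts (3 libraries), tumours grown in KO hosts (3 libraries), visceral fat of WT mice after high-fat feeding (3 libraries) and visceral fat of KO mice after the same feeding (4 libraries). The tumour cells themselves were not labelled as altered, so WT and KO name the host. The promoter that drives the deletion, the ages of the mice, the diet of the tumour hosts and the number of animals are not given in the sources used here. Nothing in the labels says that libraries of a group came from separate animals, so each p-value measures the spread between libraries, which may be partly technical.

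Keratins are paired filament proteins: a type II keratin such as Krt8 needs a type I partner such as Krt18, and the Krt8 and Krt18 pair marks simple and luminal epithelium while Krt14 marks basal and myoepithelial cells. Epcam and Cdh1 (E-cadherin) hold epithelial cells together, Cdh2 (N-cadherin) and the filament protein Vim are typical of mesenchymal cells, and the repressor Zeb1 binds E-box sequences and silences Cdh1 during epithelial-mesenchymal transition. Esr1 and Pgr encode the oestrogen and progesterone receptors of luminal mammary epithelium. Visceral fat has its own sources of these transcripts, among them the keratin-positive mesothelium and the vimentin-positive stromal, vascular and immune cells.

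Tumour libraries held 22834259 to 34706555 reads in genes and fat libraries 29362788 to 41534662. The targeted gene Cd274 overlapped between WT and KO fat: its mean was 590.2 ± 129 (SD, n = 3) for WT and 543.9 ± 17.6 (SD, n = 4) for KO, with an adjusted p of 0.660 by limma. The adipocyte hormone gene Adipoq stood at 18360 or more in every fat library, at 18360 to 31680 in KO and 100200 to 126800 in WT. The Y-linked gene Ddx3y was at 3612 to 6067 in fat but had at most 8 reads in a tumour, where Xist was at 919 to 2400 normalised reads, so the fat and tumour libraries also differ in sex-linked genes. The fat groups differed in sperm and epididymal genes. The sperm gene Prm2 was at 282.2, 92.0 and 25.8 in WT libraries 1, 3 and 4 and at 0 to 1.08 in KO fat, and the sum of 14 such genes was 241.6 to 2155 in WT and 8.63 to 18.8 in KO fat, so material from the reproductive tract and genotype cannot be told apart in fat. In addition, 3 libraries stood apart from their own group. The WT fat library numbered 4 alone carried the epididymal genes Adam7 (1918, against 0 to 2.02 in the other 6) and Spag11b (184, against 0 to 0.860) and the tract gene Pax8 (83.5, against 0 in the other 6). KO fat replicate 4 carried the pancreatic gene Pnlip at 492.8, against 0 to 9.08 elsewhere. Tumour KO replicate 2 held 93 reads of Krt17 and 92 of Krt6a, keratins of stratified epithelium, against at most 15 and 28 in the other 5 tumours. Krt1 and Krt10 instead peaked in tumour WT replicate 3, at 60.4 and 110.6 normalised reads against 45.9 and 59.9 in KO replicate 2. Of 26 luminal epithelial genes with 10 or more reads, WT fat library 4 was the highest of all fat libraries in 19.

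The tumours had a mixed profile. Vim and Krt8 were abundant, Zeb1 was at a moderate level, and the partner keratin Krt18, the basal keratin Krt14, Epcam and Cdh1 were all low. Between genes, levels are compared as RPKM, here the normalised reads divided by exon length and by the common library size. On that scale Vim averaged 1523 ± 61.8 (SD, n = 6) and ranked 5 of 22144 genes with a known length, Krt8 averaged 161.6 ± 12.4 (SD, n = 6) and ranked 222, and Zeb1 averaged 6.61 ± 0.791 (SD, n = 6). The ranges of these 3 did not touch each other or those below. Krt18 (1.81), Krt14 (1.04), Cdh1 (1.03) and Epcam (0.790) followed with overlapping ranges, and Esr1 (0.0743), Cdh2 (0.0471) and Pgr (0.0235) came last, below the range of Epcam and overlapping among themselves. The order did not change when the longest coding transcript was used as the length. In bulk tissue fewer cells of a type and less RNA per cell cannot be told apart, and neither can RNA of host and of tumour cells. Leukocyte markers summed to 59760 to 76210 normalised reads and fibroblast markers to 22350 to 32800. Which cells made the fibroblast marker reads is not known from these data. The part of host cells in the level of Vim was not tested.

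**Figure D1:**
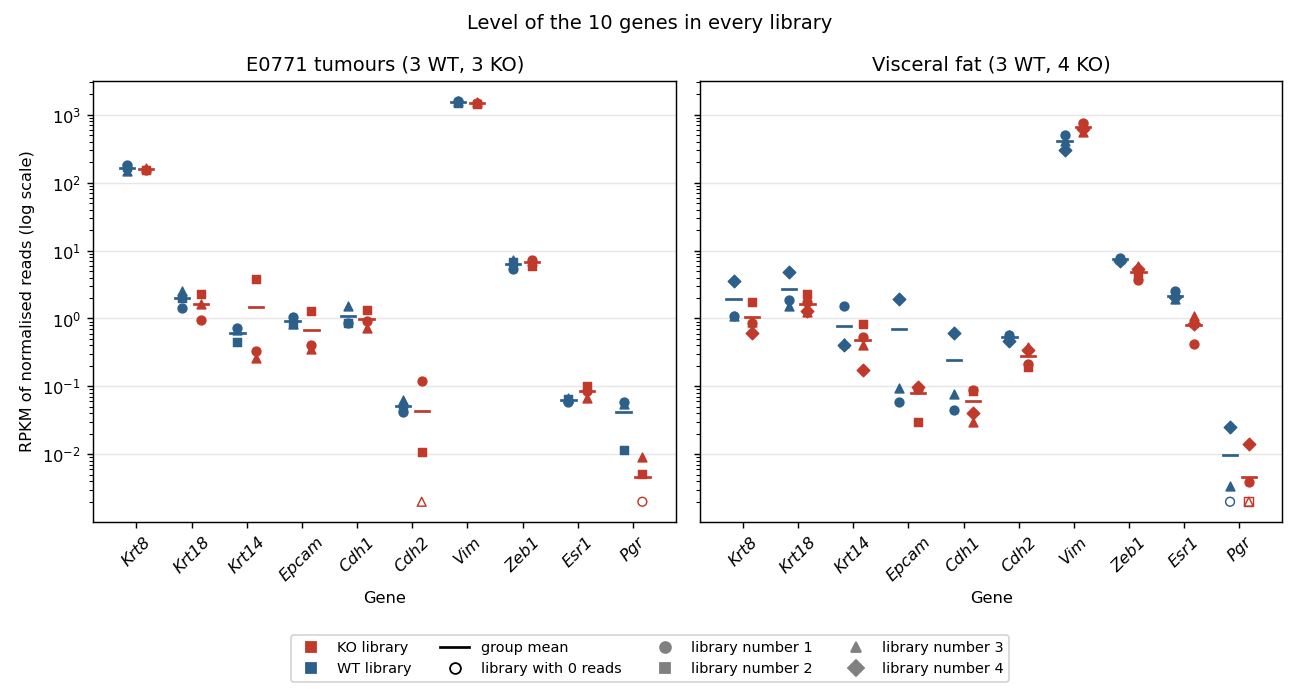
RPKM of normalised reads (log scale) for each of the 10 genes in each of 6 tumour libraries (left) and 7 fat libraries (right), with WT in blue, KO in red, the library number as the marker shape and the group mean as a bar; open symbols are libraries with 0 reads, drawn at the bottom. In tumours Vim and Krt8 lie far above the rest, and their WT and KO bars nearly coincide, while in fat Krt8 sits beside Krt18.

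Sequence before the RefSeq start of 4 of these genes is printed because they span the contrast in the tumours: Krt8 and Vim high, Krt18 and Epcam low. Each line gives the 250 bases upstream of the RefSeq start (GRCm38.p6), 5′ to 3′ on the strand of the gene, with capitals on every CANNTG, the E-box core that Zeb1 and other factors can bind. The windows are chr15:102004343-102004592 on the minus strand for Krt8, chr15:102027966-102028215 on the plus strand for Krt18, chr17:87635729-87635978 on the plus strand for Epcam and chr2:13574061-13574310 on the plus strand for Vim. GENCODE, the source of the gene positions given below, places some starts elsewhere. By its bounds the whole Vim window lies inside the gene, which begins at 13573927. Part of the Krt8 window (gene end 102004482), with its CACCTG, and part of the Krt18 window (gene start 102028180) also lie inside the gene.
Krt8: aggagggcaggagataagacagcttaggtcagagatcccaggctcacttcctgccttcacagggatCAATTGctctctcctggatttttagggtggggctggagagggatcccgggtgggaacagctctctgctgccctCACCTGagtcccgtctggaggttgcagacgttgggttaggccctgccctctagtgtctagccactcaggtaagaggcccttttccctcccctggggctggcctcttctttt
Krt18: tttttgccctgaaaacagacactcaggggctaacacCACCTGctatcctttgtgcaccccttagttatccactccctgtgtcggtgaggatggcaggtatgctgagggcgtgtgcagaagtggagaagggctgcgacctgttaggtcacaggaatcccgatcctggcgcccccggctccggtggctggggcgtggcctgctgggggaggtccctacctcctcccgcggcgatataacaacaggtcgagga
Epcam: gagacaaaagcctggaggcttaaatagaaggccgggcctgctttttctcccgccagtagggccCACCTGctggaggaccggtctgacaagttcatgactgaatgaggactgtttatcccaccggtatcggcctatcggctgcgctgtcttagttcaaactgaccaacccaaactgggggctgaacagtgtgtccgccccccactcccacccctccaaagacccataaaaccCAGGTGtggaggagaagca
Vim: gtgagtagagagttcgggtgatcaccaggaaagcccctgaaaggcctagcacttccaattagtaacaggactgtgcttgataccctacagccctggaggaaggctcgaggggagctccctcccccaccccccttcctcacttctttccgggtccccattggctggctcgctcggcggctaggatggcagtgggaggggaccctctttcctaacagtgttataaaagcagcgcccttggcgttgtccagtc
Searching both strands, CANNTG occurred in 66.2% of 32841 promoters of the same length and its form CAGGTG in 17.2%. Krt8 had 2 matches to CANNTG, Krt18 had 1 and Epcam had 2, and each of the 3 windows held at least 1 CAGGTG (read as CACCTG on the other strand). Vim held no CANNTG in its window and a TATAAA 32 bases before the RefSeq start, a motif found in 12.4% of promoters. Krt8 and Krt18, which differ so much in tumour level, both held 1 CAGGTG, at -111 and -214. CpG pairs numbered 3 in Krt8, 12 in Krt18, 8 in Epcam and 8 in Vim, against a median of 6 over all promoters. A match describes letters in these windows and no more.

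Krt8 was steady across tumours. Normalised reads (counts rescaled to a common library size) in KO hosts were 8735, 8765 and 9492, and in WT hosts 10310, 9667 and 8441. The groups overlapped, with the highest and the lowest library both from WT hosts. The KO mean was 8997 ± 428 (SD, n = 3) and the WT mean 9474 ± 951 (SD, n = 3). Their log2 fold change, -0.07 (SE 0.11, 95% interval -0.32 to 0.17), was one that edgeR's quasi-likelihood test did not call (adjusted p = 0.919). The highest library exceeded the lowest by 1.22-fold. Krt8 lies on chromosome 15 at 101996698 to 102004482 of GRCm38, minus strand, in 9 exons.

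Krt18, its type I partner, starts 23.7 kb away on the plus strand (chromosome 15, 102028180 to 102032027, in 7 exons). Counts were 48, 75 and 61 in KO and 60, 88 and 115 in WT tumours. The groups overlapped. On the log2 scale they differed by -0.30 (SE 0.37, 95% interval -1.12 to 0.51), with an edgeR adjusted p of 0.897. Without KO replicate 2, the tumour with the high Krt17 and Krt6a, it was -0.62 (edgeR adjusted p = 0.995). Reads of Krt8 outnumbered those of Krt18 in all 6 tumours, by a ratio of 216, 91.7 and 139 in KO and 174, 115 and 79.0 in WT tumours. In the 7 fat libraries, in which both genes were also measured, the same ratio was 0.639 to 1.04. The fat values were scaled by 1 factor per library, which cancels in this ratio.

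Counting may touch this pair. With alignments of at least 90% identity over at least 100 bases, 1 pseudogene transcript covered 88.1% of the Krt18 transcript, and 2 other genes, 1 of them a pseudogene, covered 51.8% of the Krt8 transcript. Alignments at several places made up 59.1% to 63.8% of all entries in the tumour table. The share of Krt18 or Krt8 reads set aside in this way was not tested. No other member had such a look-alike.

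Across the keratin family, the tumours expressed type II almost wholly as Krt8. The table holds 52 keratin genes, 27 of type I, 24 of type II and 1 of neither. Krt8 made up 95.3% to 98.8% of the summed type II RPKM in every tumour, and the type II sum was 152 to 184. The type I sum was only 3.46 to 17.9, led by Krt16 in 4 tumours and by Krt18 in WT replicates 2 and 3. Thus no type I keratin came near Krt8: Krt16 averaged 2.08, Krt18 1.81 and Krt19 1.70 RPKM. In fat the balance per length was the other way, with type I at 6.88 to 20.3 RPKM and type II at 4.59 to 8.34. It rested on the exon lengths: in reads, type II exceeded type I in every fat library but WT library 4 (1052 against 1142). Another gene length was not tried for these sums. Krt19, a keratin of simple epithelium and mesothelium, led type I in all 7 libraries.

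**Figure D2:**
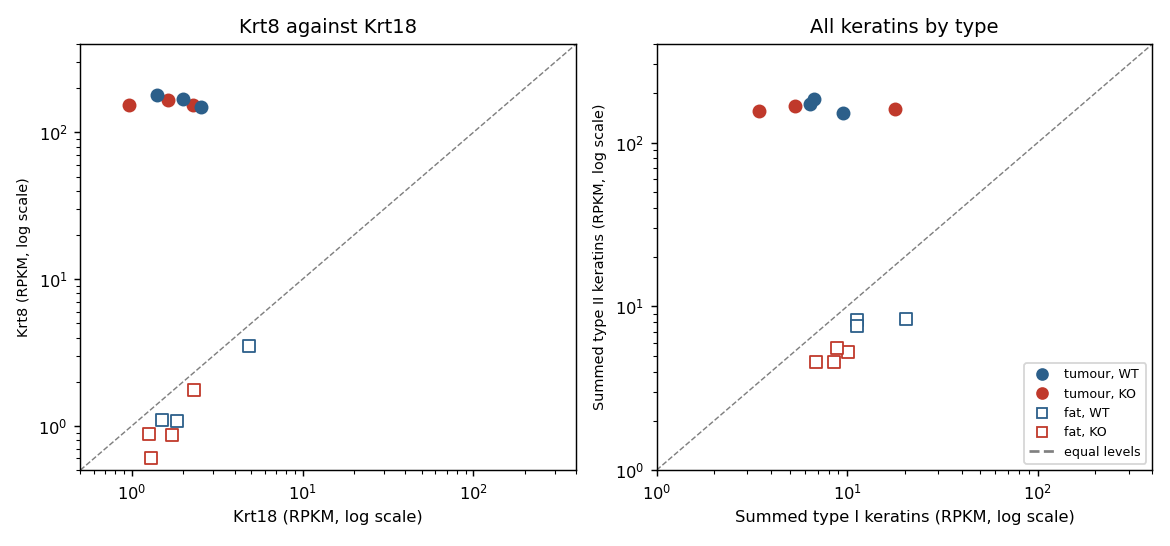
Krt8 against Krt18 (left) and summed type II against summed type I keratins (right), both axes in RPKM on log scales, 1 symbol per library, with filled circles for tumours and open squares for fat, blue for WT and red for KO, and a dashed line at equal levels. The 6 tumours lie far above the line (Krt8 to Krt18 per length 57.9 to 158) and the 7 fat libraries lie below it (0.469 to 0.763).

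Krt14, the basal keratin (chromosome 11, 100203162 to 100207548, minus strand), had its highest value in 1 library that stood apart. Counts were 20, 154 and 12 in KO tumours and 38, 24 and 37 in WT tumours. KO replicate 2 was far above the other 5, and the remaining KO tumours lay below all WT tumours. The log2 fold change was 1.23 (SE 0.83) with an edgeR adjusted p of 0.815, and without KO replicate 2 it was -1.04 with an adjusted p of 0.995. In the same library Krt5, the type II partner of Krt14, had 74 reads against 6 to 25 elsewhere, and Krt16 had 171 against at most 86. Of 14 basal or myoepithelial genes with 10 or more reads it was the highest tumour in 7. For others of them it was the lowest: Itga6 (11600, against 14500 to 21650), Itgb4 (527.5, against 854.5 to 1139) and Dst (3016, against 3265 to 5943). Summed keratinocyte markers were 1068 normalised reads in KO replicate 2 and 676.0 to 751.2 in the other 5. Most of each sum was Sbsn, at 833.3 in KO replicate 2 and 543.8 to 733.5 elsewhere. Krt1, Krt10 and Lor peaked in a WT tumour, while Krt5, Krt15, Dsg1a, Sbsn and Krtdap peaked in KO replicate 2. The part of these markers in the Krt14 value was not tested.

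The adhesion genes were low in both hosts. Epcam (chromosome 17, 87635979 to 87651129, plus strand) had 31, 64 and 20 reads in KO and 69, 55 and 57 in WT tumours. Scaled for depth, KO replicate 2 was the highest tumour and KO replicates 1 and 3 the lowest, so the groups overlapped. Cdh1 (chromosome 8, 106603351 to 106670246, plus strand) had 145, 138 and 85 reads in KO and 116, 121 and 220 in WT tumours, also overlapping. The log2 fold change was -0.43 (SE 0.49) for Epcam with an edgeR adjusted p of 0.888, and -0.15 (SE 0.31) for Cdh1 with 0.939. Without KO replicate 2 the value for Epcam was -1.24 (unadjusted p = 0.0159, edgeR adjusted p = 0.995), and it was -0.12 without KO replicate 3. Cdh1 was at -0.41 without KO replicate 2, and its sign turned without KO replicate 3 (0.04) and without WT replicate 3 (0.19).

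Of the mesenchymal genes, Vim (chromosome 2, 13573927 to 13582826, plus strand) varied least of the 10 members between tumours (coefficient of variation 4.05%). It stood at 208400, 196000 and 213900 normalised reads in KO and 220000, 209500 and 217700 in WT tumours, with overlap between the groups. The log2 fold change was -0.07 (SE 0.09, 95% interval -0.25 to 0.12) with an edgeR adjusted p of 0.903. Zeb1 (chromosome 18, 5591860 to 5775467, plus strand) was at 2211, 1788 and 2105 in KO and 1604, 2019 and 2158 in WT tumours, and the groups overlapped. Its log2 fold change was 0.08 (SE 0.14, 95% interval -0.24 to 0.39), at an edgeR adjusted p of 0.934. The sign turned (-0.04) without WT replicate 1.

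Cdh2 (chromosome 18, 16588877 to 16809246, minus strand) had few reads in the tumours, 33, 2 and 0 reads in KO and 10, 12 and 16 in WT tumours. KO replicate 1 was the highest tumour, and the KO range spanned the WT range. Per length, Cdh1 exceeded Cdh2 in the 4 tumours with 10 or more Cdh2 reads, by 7.75-fold to 24.2-fold. Cdh2 differed between hosts by a log2 fold change of -0.15 (SE 0.95), with an edgeR adjusted p of 0.985. Without KO replicate 1, which held nearly all KO reads, it was -3.20 (unadjusted p = 0.0147, adjusted p = 0.369), and its sign turned without KO replicate 2 (0.26), KO replicate 3 (0.39) or WT replicate 3 (0.02).

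The hormone receptors were at a handful of reads. Esr1 (chromosome 10, 4611593 to 5005614, plus strand) had 40, 32 and 24 reads in KO and 24, 27 and 29 in WT tumours, overlapping once scaled. Its log2 fold change was 0.40 (SE 0.41), at an edgeR adjusted p of 0.866. Pgr (chromosome 9, 8899833 to 8968611, plus strand) had 0, 1 and 2 reads in KO and 15, 3 and 15 in WT tumours and was left out of the fit by the filter on low counts. All 3 KO tumours were below all 3 WT tumours, with KO replicate 3 and WT replicate 2 only 1 read apart. Summed over libraries this was 3 against 33 reads, a rate ratio of 0.1 with an exact 95% interval of 0.0196 to 0.319 that covers counting error only. The exact two-sided permutation test over samples gave 0.1, the smallest p that 3 against 3 allows. With no filter, edgeR gave a log2 fold change of -3.13 and an adjusted p of 0.559. The milk protein genes Csn2, Csn1s1 and Wap were at 0 in all 6 tumours.

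No member passed the test between hosts in the tumours. Of 9 tested, 0 passed in either direction (percent called over all 13109 genes, 0), 3 log2 fold changes were above 0 and 6 below, and the median was -0.07 against 0.00 over all genes. At an unadjusted p under 0.05 there were 0 members and 905 genes (6.90%). The exact two-sided permutation p over samples was 0.2 to 1 for the 9, where 3 against 3 cannot go below 0.1. DESeq2 also called 0 members, with 59 genes in all, 47 higher and 12 lower. Of the 10 members only Pgr, which had too few reads to be tested, had groups that did not overlap, a pattern seen in 10.6% of tested genes (5.68% with KO above WT, 4.93% with KO below). The 95% intervals differ in width: 0.799-fold to 1.13-fold for Krt8, 0.840-fold to 1.09-fold for Vim and 0.848-fold to 1.31-fold for Zeb1, but 0.214-fold to 3.79-fold for Cdh2.

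**Figure D3:**
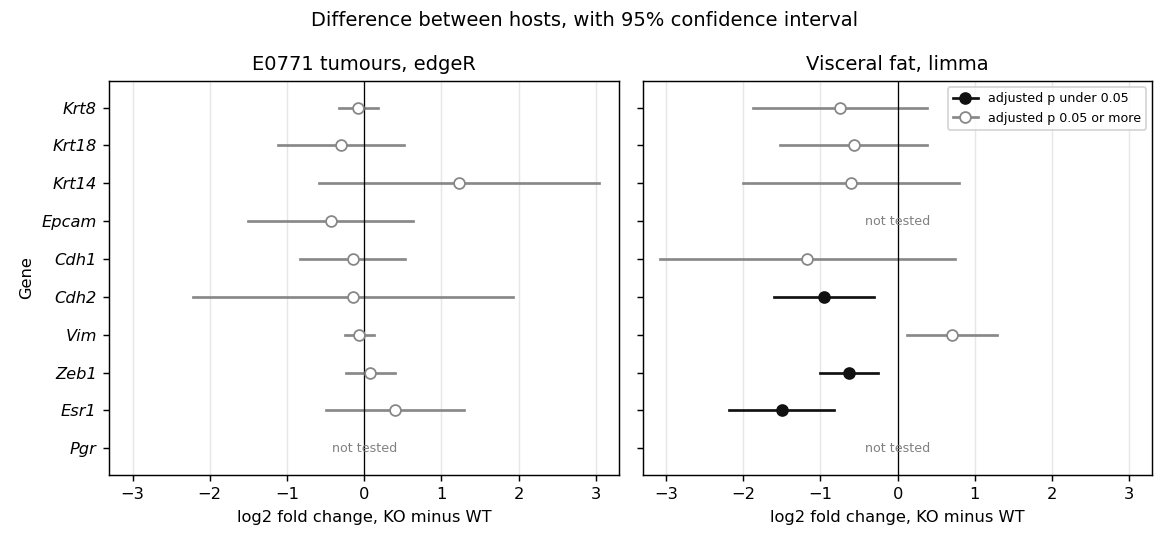
Log2 fold change, KO minus WT, with its 95% confidence interval for each gene in tumours (left, edgeR) and fat (right, limma); filled black points have an adjusted p under 0.05 and grey open points do not, and genes under the filter are written as not tested. In tumours all 9 intervals include 0, and in fat Cdh2, Zeb1 and Esr1 lie below 0.

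Other genes of the same programmes did not pass in the tumours either. None of 19 luminal epithelial, 12 basal or myoepithelial, 23 mesenchymal, 10 cadherin and catenin, 8 vimentin-partner or other filament and 17 hormone-response genes tested was called by edgeR. The median log2 fold changes were -0.14, 0.32, 0.01, 0.00, 0.08 and -0.04. The smallest p in these lists belonged to Jup (plakoglobin, a junction protein), at 366.4 ± 62.7 (SD, n = 3) normalised reads in KO against 532.2 ± 18.0 (SD, n = 3) in WT tumours, a log2 fold change of -0.54 with an edgeR adjusted p of 0.581. Tagln, a smooth muscle and myofibroblast protein, was at 57.3 ± 15.4 (SD, n = 3) and 23.9 ± 7.49 (SD, n = 3), a log2 fold change of 1.26 with an edgeR adjusted p of 0.627. Twist1, an inducer of epithelial-mesenchymal transition, was at 875.4 ± 21.9 (SD, n = 3) and 1109 ± 94.7 (SD, n = 3), a log2 fold change of -0.34 with an edgeR adjusted p of 0.676. For Jup, Tagln and Twist1 the 3 KO and 3 WT values did not overlap, yet none passed. These 3 were named for the smallest p in the lists, and 10.6% of all tested genes did not overlap. Fn1, next by p, overlapped (log2 fold change -0.49, edgeR adjusted p = 0.676).

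The mesenchymal list spanned a wide range of levels in the tumours. The repressor Snai2 was at 0 to 11.2 normalised reads and the transcription factor Foxc2 at 0 to 4.65, both picked after their values were seen. Among the most abundant, S100a4, a calcium-binding protein of motile cells, averaged 22070 normalised reads in KO and 27760 in WT tumours. The fibronectin receptor chain Itgb1 averaged 37380 and 35940, and the matrix protein Tgfbi 30250 and 30750. Of the luminal list the plakophilin Pkp3 was among the highest per length, at 1316 and 1206 normalised reads. The epithelial regulator Grhl1 was at 11.8 ± 2.99 (SD, n = 3) in KO against 4.75 ± 3.71 (SD, n = 3) in WT tumours, a log2 fold change of 1.28 with an edgeR adjusted p of 0.791. The catenins that link cadherins to actin were abundant, with Ctnnb1 at 17790 and 17910 and Ctnna1 at 9620 and 9126.

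In fat, 3 of the 10 genes fell in KO mice and none rose. Esr1, Zeb1 and Cdh2 passed limma's test at an adjusted p under 0.05, 8 members having been tested. This is to be read against 34.2% of 14455 genes called, 16.8% higher and 17.4% lower, so calls were common in this tissue. At an unadjusted p under 0.05 there were 4 of the 8 members, against 45.4% of genes. The median log2 fold change of the 8 members was -0.69, against -0.000497 over all genes. That median includes values resting on single libraries. Krt8, Krt18 and Cdh1 were at -0.19, -0.06 and -0.09 without WT library 4, and Krt14 at -0.00452 without WT library 1. Groups did not overlap for 4 members (Vim above, Cdh2, Zeb1 and Esr1 below), against 43.7% of all genes, 21.6% above and 22.1% below. For each of these 4 the exact two-sided permutation test over samples gave 0.0571, the smallest p that 3 against 4 allows.

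Esr1 showed the largest of these falls. Deposited normalised values were 191.0, 389.5, 497.6 and 378.9 in KO fat and 1128, 879.5 and 938.3 in WT fat. Every KO library was below every WT library, and the KO mean was 364.2 ± 127 (SD, n = 4) against 981.9 ± 130 (SD, n = 3). On the log2 scale the difference was -1.50 (SE 0.30, 95% interval -2.18 to -0.82) with a limma adjusted p of 0.00625, and the call held in all 11 alternatives run, between -1.68 and -1.22.

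Zeb1 was at 1263, 1477, 1990 and 1822 in KO and 2619, 2528 and 2362 in WT fat, again with no overlap. It fell by 0.63 on the log2 scale (SE 0.16), with a limma adjusted p of 0.0184. The call was lost without KO replicate 2 (-0.59, adjusted p = 0.0543) and without WT library 3 (-0.63, adjusted p = 0.0653). Cdh2 was at 57.4, 50.7, 100.8 and 91.7 in KO and 150.5, 149.7 and 123.7 in WT fat, and fell by 0.96 (SE 0.28) with a limma adjusted p of 0.0309. KO replicates 1 and 2 were the lowest for both genes. The Cdh2 call was lost without KO replicate 1 (adjusted p = 0.0633), KO replicate 2 (0.0743), WT library 1 (0.0694) or WT library 3 (0.102), with the log2 fold change between -0.91 and -0.79 by limma. Without WT library 4, which alone carried Adam7, Esr1, Zeb1 and Cdh2 still passed (-1.53, -0.67 and -1.05), and so they did without KO replicate 4, the pancreatic one (-1.55, -0.69 and -1.07). WT libraries 1 and 3 still had sperm and epididymal sums of 568.6 and 241.6, far above KO fat, and the part of that material in these differences was not tested.

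Vim went the other way without passing. It was at 117500, 109700, 86340 and 96800 in KO and 79880, 63320 and 48110 in WT fat, so every KO library was above every WT library. Its log2 fold change was 0.71 (SE 0.26, 95% interval 0.12 to 1.29) with a limma adjusted p of 0.0621. It passed without WT library 1 (0.88, limma adjusted p = 0.0293) and with edgeR on the read counts recovered from the table (0.69, adjusted p = 0.0478). In the list of vimentin partners and other filament genes, Nes rose by limma (log2 fold change 1.18, adjusted p = 0.00218). So did the nuclear lamin gene Lmna (1.19, limma adjusted p = 0.00276). Synm fell (-0.83, limma adjusted p = 0.0391), a call lost without KO replicate 1, KO replicate 2, WT library 3 or WT library 4 (adjusted p 0.0800 to 0.127). Over that list, 2 of 7 tested rose and 1 fell, against 16.8% of all genes called higher and 17.4% called lower.

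Cell type markers moved with these genes in the KO fat, where 34.2% of all genes were called, 16.8% higher and 17.4% lower. Of 9 adipocyte markers 9 fell, and their sum was 265500 to 417400 in KO and 875300 to 1031000 in WT libraries. Of 9 endothelial markers 9 fell (22970 to 38340 against 53860 to 70050), and of 10 leukocyte markers 8 rose (217200 to 326000 against 43980 to 126700). Of 11 fibroblast markers 2 rose, with sums of 484100 to 715200 and 245800 to 460700. In KO libraries, relative to the WT mean, Zeb1 was 0.504 to 0.795, Cdh2 0.359 to 0.713 and Esr1 0.194 to 0.507, beside 0.283 to 0.444 for the adipocyte sum and 0.383 to 0.639 for the endothelial sum. Vim was 1.35 to 1.84, beside 2.67 to 4.00 for the leukocyte sum and 1.42 to 2.09 for the fibroblast sum. The mesothelial sum was 0.355 to 0.691 in KO libraries and overlapped WT, at 0.653 to 1.25. The part of these cell types in the 4 differences was not tested.

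**Figure D4:**
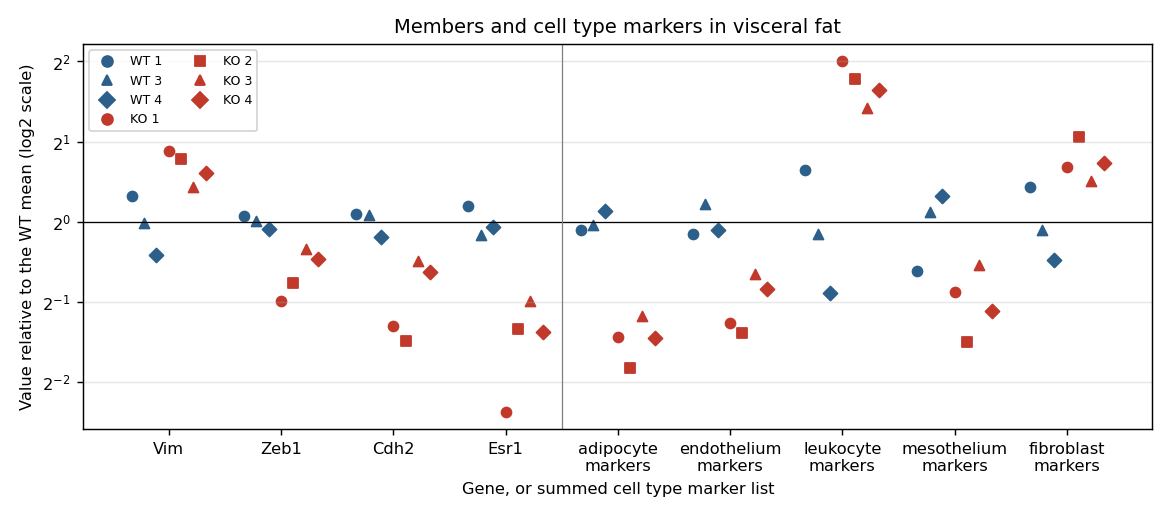
Value relative to the mean of the WT libraries (log2 scale) in each of the 7 fat libraries for Vim, Zeb1, Cdh2 and Esr1 and for the summed markers of 5 cell types, WT in blue and KO in red, with the library number as the marker shape. All 4 KO libraries lie below all 3 WT libraries for Zeb1, Cdh2, Esr1 and the adipocyte and endothelial sums, and above them for Vim and the leukocyte and fibroblast sums.

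Krt8, Krt18, Cdh1 and Epcam had their highest fat values in WT library 4, and no difference between hosts passed for the 3 that were tested. Krt8 was at 56.3, 114.4, 57.2 and 39.3 in KO and 69.7, 71.4 and 227.9 in WT fat, Krt18 at 81.7, 110.0, 59.9 and 61.5 in KO and 87.8, 71.4 and 231.0 in WT, and Cdh1 at 13.2, 12.9, 4.54 and 6.05 in KO and 6.88, 11.7 and 92.8 in WT. For each of these the groups overlapped, with WT library 4 at the top and KO replicate 2 or 1 next. None passed by limma: the log2 fold change was -0.75 for Krt8 (adjusted p = 0.271), -0.57 for Krt18 (0.318) and -1.17 for Cdh1 (0.307). Without WT library 4 these were -0.19, -0.06 and -0.09. Epcam was at 2.16 to 7.26 in KO fat, at 4.30 and 6.85 in WT libraries 1 and 3 and at 142.3 in WT library 4, and was not tested because too few libraries reached a value of 10.

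**Figure D5:**
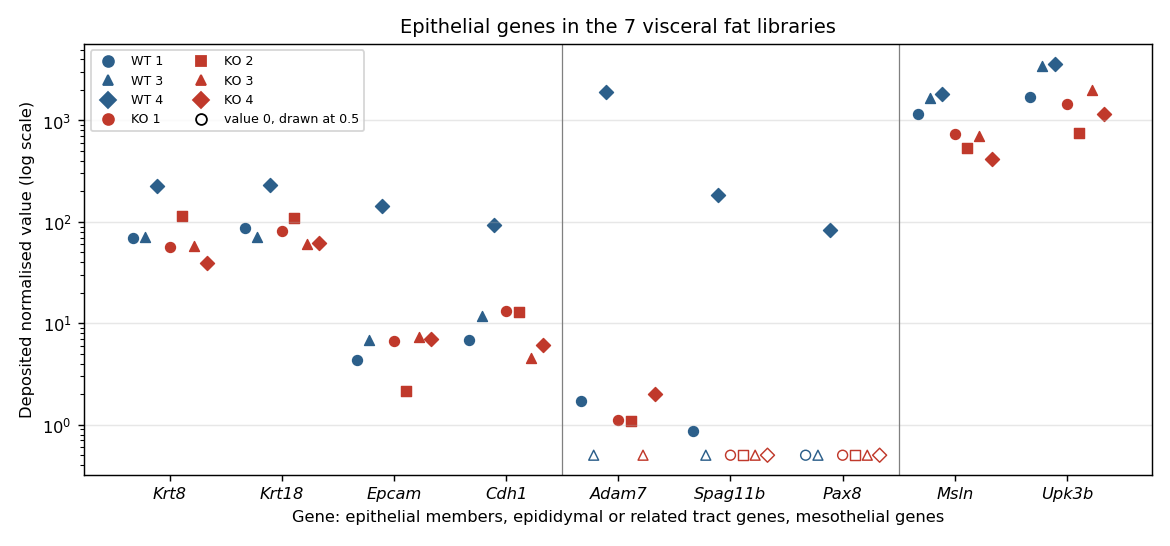
Deposited normalised value (log scale) in each of the 7 fat libraries for 4 epithelial members, for 3 epididymal or related tract genes and for 2 mesothelial genes, WT in blue and KO in red, with the library number as the marker shape and open symbols for 0, drawn at 0.5. WT library 4 is the highest for Krt8, Krt18, Epcam, Cdh1, Adam7 (1918), Spag11b (184) and Pax8 (83.5).

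Krt14 in fat was at 30.9, 47.5, 23.6 and 10.1 in KO and 87.8, 25.4 and 23.7 in WT libraries, overlapping, with WT library 1 on top. Its log2 fold change of -0.60 (limma adjusted p = 0.475) was -0.00452 without that library. Pgr was listed at 0 in 3 of 7 fat libraries and reached at most 7.22, in WT library 4, and was not tested. The order of mean RPKM in fat was Vim (548.9), Zeb1 (5.93), Krt18 (2.12), Krt8 (1.41), Esr1 (1.40), Krt14 (0.613), Cdh2 (0.389), Epcam (0.348), Cdh1 (0.140) and Pgr (0.00675). Of neighbours in this order, only Vim and Zeb1 and Cdh1 and Pgr had ranges that did not overlap, and 5 members took another place when the longest coding transcript set the length. The means of Epcam and Cdh1 rest largely on WT library 4, at 1.964 and 0.6145 RPKM, against at most 0.1002 and 0.0877 in any other fat library.

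The context lists in fat moved in more than one direction, and their counts are to be read against 16.8% of all genes called higher and 17.4% called lower. Of 25 mesenchymal genes tested 9 rose and 0 fell (median 0.36), among them the membrane protease Mmp14 (log2 fold change 1.35, limma adjusted p = 0.00212), the receptor kinase Axl (1.10, 0.00218) and the homeobox gene Prrx1 (1.20, 0.00345). S100a4 rose by 1.35 with a limma adjusted p of 0.0252, a call lost without KO replicate 1 or 2 or WT library 3 or 4 (adjusted p 0.0507 to 0.0714). Of 10 cadherin and catenin genes 0 rose and 5 fell (median -0.49): Jup by limma (-0.98, adjusted p = 0.00305), Mllt4, the afadin gene (-0.98, 0.00450), Cdh13 (-1.40, 0.00605) and the endothelial cadherin Cdh5 (-1.14, 0.0125; 0.0562 without WT library 3) were among them. Ctnnb1 was at 18010 in both groups.

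Of 17 luminal epithelial genes tested 2 rose and 4 fell (median -0.89). The tight junction genes Marveld2 (2.10, limma adjusted p = 0.00236) and Tjp3 (1.48, 0.00487) were the 2 that rose. Cd24a, a surface glycoprotein, fell (-1.12, limma adjusted p = 0.00566). Krt19 fell by 0.84 with a limma adjusted p of 0.0454, which was lost in 6 of 11 alternatives, among them without WT library 4 (-0.55, adjusted p = 0.125). Of 9 mesothelial markers, a list that also holds Krt19, 6 fell, with sums of 3312 to 6453 in KO and 6100 to 11710 in WT fat. Their part in the keratin values was not tested.

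Of 15 basal or myoepithelial genes 0 rose and 7 fell (median -0.97). Acta2, the smooth muscle actin, was at 3929 ± 969 (SD, n = 4) in KO against 12440 ± 2930 (SD, n = 3) in WT fat, a log2 fold change of -1.67 with a limma adjusted p of 0.00222. The integrin Itga6 (-1.17, limma adjusted p = 0.00811) and the basal regulator Trp63 (-2.40, 0.0174; 0.0510 without WT library 1) also fell. Of 14 hormone-response genes 1 rose and 5 fell (median -0.42), with the secreted glycoprotein Stc2 (-1.90, limma adjusted p = 0.00124), the prolactin receptor Prlr (-1.56, 0.00576) and the receptor kinase Erbb2 (-0.86, 0.0108) of smallest p. Of 11 keratins tested 1 rose and 4 fell: Krt20 rose (1.91, limma adjusted p = 0.00813), and Krt80 (-1.26, 0.0108) and Krt7 (-0.89, 0.0205) fell, Krt7 losing its call without KO replicate 2, KO replicate 4 or WT library 3 (adjusted p 0.0565 to 0.0913).

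Within the member set, patterns over libraries are given as descriptions, with no test, since the libraries share hosts, depth and cell makeup. Over the 7 fat libraries log2 values of Krt8 and Krt18 had a Pearson r of 0.951, Zeb1 and Cdh2 0.967, Zeb1 and Esr1 0.962, and Vim and Zeb1 -0.809. Krt8 and Krt18 were both highest in WT library 4, at 227.9 and 231.0, against at most 114.4 and 110.0 elsewhere in fat. For Zeb1, Cdh2, Esr1 and Vim the KO and WT fat libraries did not overlap, so their r values in fat also carry the group difference. Over the 6 tumours Krt8 and Krt18 had an r of -0.256 and Krt14 and Epcam 0.820. Krt14 and Epcam were both highest in KO replicate 2, at 196.2 and 81.55 normalised reads, against at most 37.43 and 67.97 in the other tumours. Whether these r values hold within a group or without the highest library was not tested. The gene most like Esr1 in fat was BC046331 (0.993), the most like Zeb1 was Ggps1 (0.996), the most like Cdh2 was Gpr4 (0.994) and the most like Vim was Gpsm2 (0.998). In tumours Tusc3 was most like Krt8 (0.991) and Skiv2l most like Vim (0.989). Each was the highest of all genes compared, over few libraries.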

How the data were processed

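RNA was taken with Trizol and 500 ng went into each Illumina TruSeq stranded mRNA library, per the labels' protocols. CASAVA, TopHat, DESeq2 and the build mm10 are named in the submitters' processing notes, without versions or roles. The counting tool, annotation and strand setting are not given in the sources used here, so reads of Krt8 and Gm36026 (101 bases of opposite-strand exon overlap) and of Zeb1 and Gm10125 (198 bases) may not be separable. For tumours the authors deposited a raw read count per gene symbol. Its 5 summary lines, which name no gene, held 66.7% to 72.2% of entries and were removed before any fit. For fat the deposited values are a normalised signal. Each library's values are its reads scaled by a single factor: 117220 of 117220 values above 0 were whole multiples of the value of 1 read within 0.001 (100%). The 2 tables were normalised separately and tested separately. WT fat columns are numbered 1, 3 and 4 and the labels 1 to 3, so these columns were assigned to their group only and are named by column number.

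Tumour counts were fitted with edgeR 4.0.16 in R 4.3.3 (TMM, filterByExpr, quasi-likelihood test, 13109 genes), and fat values with limma 3.58.1 (log2(value + 1), mean-variance trend), keeping the 14455 genes that reached 10 in 3 libraries or more. Fold changes in fat are on that scale and understate changes of low genes. Both fits covered all genes, with Benjamini-Hochberg adjustment, two-sided, at 0.05. The scripts were tested on simulated data. Levels per length used exon unions of GENCODE M21 (GRCm38), found for 97.9% of genes, and promoter sequences came from RefSeq (GRCm38.p6), which matched 7 of the 10 members.

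The members and lists were chosen with earlier results of these data known. Named beside the 10 members were, per list and tissue, the 3 genes of smallest p and the 3 of highest level, and per member the 3 most alike by Pearson r among genes with a mean of 100 or more; values are printed for part of them. Alternatives were DESeq2 1.42.0, edgeR on the reads recovered for fat (4898 genes called), no filter, pseudocounts of 0.5 and 10, the replicate number as a block, another gene length and each library left out. No pair of libraries of 1 group agreed within sampling noise, and all measurement columns were mapped (0 left over).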

Additional observations from a re-analysis of the deposited data

Results flagged for a closer look

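Among 45 genes looked at in the 4 KO fat libraries, 2 had a library far from the other 3, and chance gives about 1 in 20 such groups. Epcam was low in KO replicate 2, at 2.16 against 6.62 to 7.26, which are 2 reads against 6 to 8. Ly6a, a surface antigen of many leukocyte and stromal cells, was high in KO replicate 1, at 9519 against 4715 to 5480.

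For 3 genes the KO and WT libraries did not overlap in either tissue and moved in opposite directions, a difference that was not tested. Only the members and the named genes were searched, many of which were named for a small p. Of all tested genes, 10.6% did not overlap in tumours and 43.7% in fat. The share that did so in opposite directions was not counted. Grhl1 had a log2 fold change of -1.99 in fat and 1.28 in tumours, Acta2 -1.67 and 0.40, and Synm -0.83 and 0.30. By limma the adjusted p in fat was 0.0207 for Grhl1, which was lost without KO replicate 1 or 2 or WT library 3 or 4 (0.05004 to 0.0544). None of the 3 passed in tumours.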

How the results depend on the processing

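The count of genes called in tumours was 0 in the main analysis, 59 with DESeq2, 22 with no filter on low counts and 0 to 21 with 1 library left out (9 without KO replicate 3, 21 without WT replicate 3). The count of members called there was 0 throughout. In fat, leaving out 1 library gave 3065 (without WT library 3) to 5193 genes and 1 to 3 members, with 1 member, Esr1, without KO replicate 2 or WT library 3. With the longest coding transcript as length, 5 members changed place in fat. Signs turned in tumours, over the libraries left out, for Krt14 (-1.04 to 1.73), Cdh1 (-0.41 to 0.19), Cdh2 (-3.20 to 0.39), Zeb1 (-0.04 to 0.17) and Lmnb1 (-0.00284 to 0.25), none of them called. Single values were -1.04 for Krt14 without KO replicate 2, 0.0364 and 0.187 for Cdh1, 0.259, 0.386 and 0.0248 for Cdh2 and -0.0432 for Zeb1; the cause was not tested. Counting error is largest for Krt18, Krt14, Epcam, Cdh2, Esr1 and Pgr in tumours, which had at most 154 reads in a library.

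With the replicate number as a block, 0 genes and 0 members were called in tumours, and 706 genes had an unadjusted p under 0.05 against 905 without it. Deviations of same-numbered tumours correlated at -0.218, 0.0118 and -0.220, so the numbers were not taken to pair them. No paired analysis was possible for fat because the numbers of the WT columns and of the labels differ.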
